A study of Rattus norvegicus with 16 samples.

Results

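The adrenal dependence of the liver's ozone response was examined as a difference between 2 ozone effects: ozone minus air in adrenalectomized rats, minus ozone minus air in sham-operated rats. Genes were taken from the deposited liver table by one condition, a mean of at least 14.7 normalized counts over all 16 samples, and 12788 of 22587 genes met it. At that limit the last genes left out were Fam171a2 (mean 14.69) and Gspt2 (14.70), and the first included were Sytl4 and Gpr34 (14.71 each). The condition used only a mean over all samples and no difference between groups. All rats were males of the strain labelled Wistar-Wyoto, aged 13 weeks. The 4 groups, with 4 samples each, were sham surgery and air (SHAM air), sham surgery and ozone (SHAM ozone), total bilateral adrenalectomy and air (ADREX air), and total bilateral adrenalectomy and ozone (ADREX ozone). The exposure lasted 4 hours, with ozone at 0.8 ppm, and RNA came from flash-frozen liver. Neither hormone replacement nor the interval after surgery is given in the sources used here. Groups follow the sample titles, because the treatment field of the labels gives ozone for all 8 ADREX samples, the 4 titled air included. The labels do not say that the samples of a group came from separate animals, so p-values measure the spread between these samples, which may be technical in part.

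The adrenal gland is the body's source of glucocorticoids, made in the cortex, and of circulating adrenaline, made in the medulla. In liver, glucocorticoids act through a nuclear receptor that induces enzymes of amino acid breakdown and glucose synthesis, and adrenaline acts through adrenergic receptors and cAMP or calcium. Ozone is an oxidant gas that irritates the airways and is known to raise both classes of hormone. Removing the adrenal glands takes away both at once, with any other adrenal hormone. These groups therefore cannot tell apart the effect of a glucocorticoid, of adrenaline or of another adrenal hormone.

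Recovered library totals lay between 8372891 and 14096246 reads. Hepatocyte markers were abundant in every library, with a summed level of 116391 to 227331 RPM (reads scaled to a library total of 1000000). Transcripts of nervous tissue were also present: 23 neuron and oligodendrocyte markers summed to 46.1 to 866 RPM in SHAM air, 79.1 to 2970 in SHAM ozone, 280 to 1225 in ADREX air and 841 to 4803 in ADREX ozone. None of these markers was at 0 in all libraries. On the log2 scale this marker score was higher with ozone by 1.73 in SHAM and by 1.77 in ADREX, so the difference between the effects was 0.035. In bulk tissue, fewer cells of a type and less RNA per cell cannot be told apart.

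The ozone effect differed between adrenalectomized and sham-operated livers for 14 genes of 12788 (0.109%). For 11 of them (0.086% of genes tested) the difference was negative, that is, the ozone effect was lower in ADREX. They were Spsb4, Epb4.1, Bach2, Slc12a3, Lats1, Cdk19, Dcaf13, Slc16a10, Dag1, Prox1 and Por. For Ift20, Tmem159 and Mettl6 (0.0235%) it was positive. The test was limma's moderated test of the contrast, with p-values adjusted over all genes tested and a threshold of 0.05. At an unadjusted p under 0.05 there were 1645 genes (12.9%), 790 with a negative and 855 with a positive difference, so the excess of negative values among the 14 was not present in that larger set. The split depended on scaling: 21.4% of the calls were positive with the deposited values, 4.76% of 21 after rescaling by TMM, and 8.33% of 12 after rescaling by median of ratios. TMM moved the median difference of all genes by −0.092, and median of ratios by −0.064.

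**Figure D1:**
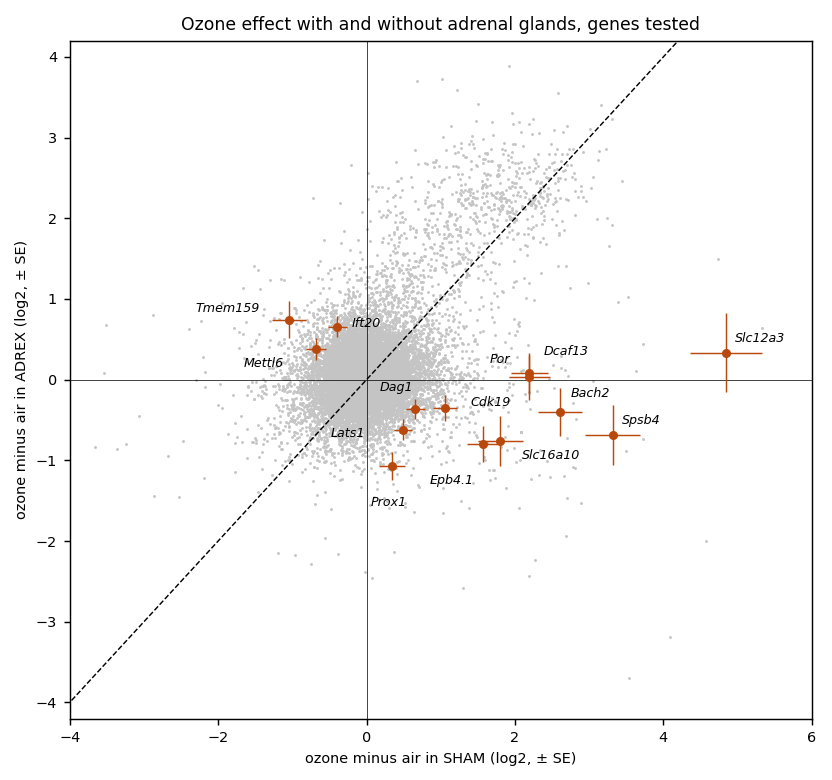
Ozone effect in SHAM (horizontal axis) against ozone effect in ADREX (vertical axis), both as log2 of ozone over air, for the genes tested (grey, 6 genes outside the axes) and the 14 genes whose effects differed (orange, bars ± SE). On the dashed line the effects are equal. The 11 genes with a negative difference lie below it at SHAM effects of 0.35 to 4.84, and the 3 with a positive difference lie above it at negative SHAM effects.

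The 3 genes with the smallest adjusted p were Spsb4, Epb4.1 and Bach2, and they were the ones called in every setting that gave them an adjusted p. RefSeq holds a promoter entry for each in the GRCr8 build. The 250 bases before the start of transcription are shown for these genes because their calls held in those settings. All rose with ozone in SHAM, and none passed the test in ADREX. Selection by the difference favours that pattern, and Slc12a3, Cdk19, Dcaf13, Slc16a10, Dag1 and Por had it too. The stretch of Spsb4 is chr8:106489272-106489521 on the minus strand, that of Epb4.1 (current symbol Epb41) chr5:149521994-149522243 on the minus strand, and that of Bach2 chr5:51513155-51513404 on the plus strand. They read 5′ to 3′ along the gene, and capitals mark a GC box (GGGCGG on either strand).
Spsb4: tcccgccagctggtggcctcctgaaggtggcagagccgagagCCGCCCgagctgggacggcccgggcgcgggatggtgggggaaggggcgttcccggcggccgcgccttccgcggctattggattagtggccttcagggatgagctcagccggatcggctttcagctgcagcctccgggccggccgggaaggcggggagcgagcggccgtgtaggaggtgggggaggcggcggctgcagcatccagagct
Epb4.1: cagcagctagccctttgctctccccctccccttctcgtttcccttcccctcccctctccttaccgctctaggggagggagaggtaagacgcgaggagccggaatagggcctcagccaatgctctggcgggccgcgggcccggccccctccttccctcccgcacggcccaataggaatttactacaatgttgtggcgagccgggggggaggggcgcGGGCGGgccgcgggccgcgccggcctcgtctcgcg
Bach2: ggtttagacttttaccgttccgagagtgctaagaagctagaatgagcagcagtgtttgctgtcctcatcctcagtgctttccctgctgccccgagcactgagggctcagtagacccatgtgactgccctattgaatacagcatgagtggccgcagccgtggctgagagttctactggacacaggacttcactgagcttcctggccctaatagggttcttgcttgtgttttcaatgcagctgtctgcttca
Spsb4 and Epb4.1 have GC-rich windows (74.7% and 70.7% G or C over 300 bases, 50 of them after the start), and the window of Bach2 has 51.3%, against a median of 60.7% for genes tested.

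Promoter entries were found for 11 of the 14 genes, and Dcaf13, Dag1 and Prox1 had none. The core hexamer of the glucocorticoid receptor site, AGAACA, searched on both strands over the 300 bases, occurred in 0 of the 11, against 20.7% of 33469 promoters in the table and 12.6% of 10584 promoters of genes tested. The core of the cAMP response element, TGACGT, also occurred in 0 of 11 (7.94% and 11.3% of the same sets), and the E-box CACGTG in 0 of 11 (6.42% and 9.17%). The GC box GGGCGG occurred in 9 of 11, against 33.1% and 60.8%, and the genes without it were Bach2 and Slc12a3. An E-box can share an end (TG or CA) with a cAMP core, so those sites can overlap. These counts describe letters in a short window and say nothing of binding in or outside it.

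Spsb4 encodes an adaptor with a SPRY domain and a SOCS box that brings substrates to a ubiquitin ligase. Its normalized counts were 31.3, 36.0, 48.8 and 34.1 in SHAM air and 827, 202, 304 and 399.7 in SHAM ozone. In ADREX they were 232, 176, 201 and 231 in air and 216, 120.5, 160.2 and 66.2 with ozone. Every SHAM ozone library lay above every SHAM air library, while the ADREX ranges overlapped and ADREX air was itself above SHAM air in all libraries. Spsb4 rose by 3.32 ± 0.37 (log2 ± SE) with ozone in SHAM and changed by −0.69 ± 0.37 in ADREX (adjusted p = 0.345). The difference was −4.005 ± 0.53 (95% interval −5.12 to −2.89, adjusted p = 0.00707), a ratio of 16.1 between the fold changes. Part of it came from air: adrenalectomy raised Spsb4 by 2.46 in air (adjusted p = 0.0019).

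Epb4.1 encodes a protein that ties the spectrin and actin skeleton to the plasma membrane. SHAM air libraries had 568, 567, 693 and 795 normalized counts, and SHAM ozone libraries 1990.0, 1589, 1853 and 2388. The ADREX libraries had 1424, 1446, 658 and 1145 in air and 772, 687, 569 and 564 with ozone. SHAM ozone stood apart above all other libraries, and ADREX ozone overlapped with SHAM air. The effects were 1.57 ± 0.22 in SHAM and −0.80 ± 0.22 in ADREX, and the difference was −2.37 ± 0.32 (adjusted p = 0.00707). Bach2 encodes a transcriptional repressor that pairs with small Maf proteins and is studied mainly in lymphocytes. It had 26.8, 14.4, 25 and 14.05 in SHAM air, 131, 108, 119 and 134 in SHAM ozone, 42.4, 44.5, 20.8 and 26.9 in ADREX air, and 29.7, 18.9, 21.9 and 27.3 in ADREX ozone. Only the SHAM ozone libraries were above 100, and they did not overlap with any other group. Its effects were 2.61 ± 0.30 and −0.40 ± 0.30, with a difference of −3.01 ± 0.42 (adjusted p = 0.00872).

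A pair of membrane transporters showed the same form. Slc12a3, the thiazide-sensitive sodium and chloride cotransporter best known from kidney, had 11.9, 8.41, 7.50 and 6.02 in SHAM air and 356, 236, 190.4 and 301 in SHAM ozone. Its counts in ADREX were 44.7, 24.4, 5.96 and 24.5 in air and 21.7, 57.6, 18.7 and 18.7 with ozone. SHAM ozone was above all 12 other libraries, and the ADREX groups overlapped. It had the largest difference of the 14 genes, −4.51 ± 0.69 (adjusted p = 0.0193). Slc16a10, which carries aromatic amino acids across the hepatocyte membrane, had 229, 464, 219 and 474 in SHAM air and 1170.2, 1370.1, 818 and 1257 in SHAM ozone. ADREX air libraries had 773, 412, 597 and 592, and ADREX ozone libraries 583, 247, 278 and 338. SHAM ozone again lay above every other library, and the ADREX means were 594 ± 147 in air and 362 ± 153 with ozone (SD, n = 4). The effects of 1.80 ± 0.31 and −0.76 ± 0.31 gave a difference of −2.57 ± 0.43 (adjusted p = 0.0317).

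Por and Dcaf13 rose in SHAM and had ADREX effects near 0. Por encodes the reductase that passes electrons from NADPH to microsomal cytochrome P450 enzymes. Its counts were 1664, 1243, 935 and 805 in SHAM air, 6654, 5499.9, 3072 and 6059.9 in SHAM ozone, 2652, 1964, 1989.6 and 3661 in ADREX air, and 2707, 2006, 3075 and 2447 in ADREX ozone. The lowest SHAM ozone library overlapped with ADREX libraries, and ADREX air was above SHAM air in all libraries (log2 1.15, adjusted p = 0.0285). The ozone effect was 2.19 ± 0.27 in SHAM and 0.03 ± 0.27 in ADREX, and the difference −2.17 ± 0.39 (adjusted p = 0.0400). Dcaf13 encodes a substrate receptor of a cullin ubiquitin ligase that also serves in ribosomal RNA processing. It had 874, 454, 878 and 524 in SHAM air, 4204, 2214, 2635 and 3271 in SHAM ozone, 878, 911, 777 and 1192 in ADREX air, and 956, 1279, 1053 and 714 in ADREX ozone. All 4 SHAM ozone libraries were above the other 12, which overlapped. Its effects were 2.19 ± 0.25 and 0.08 ± 0.25, with a difference of −2.12 ± 0.36 (adjusted p = 0.0317).

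Cdk19 and Dag1 differed by smaller amounts. Cdk19, a kinase of the Mediator complex, had 271, 386, 413 and 399 in SHAM air, 800.2, 646, 767 and 816 in SHAM ozone, 459, 495, 374 and 426 in ADREX air, and 419.7, 331, 293 and 335 in ADREX ozone. It rose by 1.06 ± 0.16 in SHAM, changed by −0.35 ± 0.16 in ADREX, and differed by −1.41 ± 0.23 (adjusted p = 0.0295). SHAM ozone did not overlap with the other groups. Dag1, which encodes dystroglycan, a receptor that links the extracellular matrix to the cytoskeleton, had 2387, 2519, 2933 and 2103 in SHAM air and 4197, 3590.4, 3651 and 4179.6 in SHAM ozone. In ADREX it had 2499, 2614, 2500.4 and 2544 in air and 2175, 1831, 1937 and 1953 with ozone. Ozone libraries were all above air libraries in SHAM and all below them in ADREX. The difference was −1.02 ± 0.18 (adjusted p = 0.0369), from 0.66 ± 0.13 in SHAM and −0.37 ± 0.13 in ADREX.

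Lats1 and Prox1 were the negative genes that ozone alone in SHAM did not pass. Lats1, a core kinase of the Hippo pathway, had 577, 490.1, 551 and 559.8 in SHAM air and 702, 755, 863 and 746 in SHAM ozone. Its counts were 631, 635, 649 and 547 in ADREX air and 441, 443, 369.7 and 353 in ADREX ozone. The order of ozone and air was thus opposite in SHAM and ADREX with no overlap in either, although neither effect passed alone (0.49 ± 0.13, adjusted p = 0.0625, and −0.62 ± 0.13, adjusted p = 0.0768). Its difference was −1.11 ± 0.18 (adjusted p = 0.0295). Prox1, a homeobox transcription factor of hepatocytes and lymphatic endothelium, had 2118, 2775, 2984 and 3391 in SHAM air, 3366, 3239, 4128 and 3466 in SHAM ozone, 3538, 3149.7, 3599 and 2690.4 in ADREX air, and 1706, 1229.7, 1941 and 1356 in ADREX ozone. ADREX ozone lay below every other library. Prox1 was the one gene of the 14 whose ADREX effect was at least 2 times the size of its SHAM effect: it fell by 1.07 on the log2 scale there (adjusted p = 0.0352), changed by 0.35 ± 0.18 in SHAM (adjusted p = 0.302), and differed by −1.42 ± 0.25 (adjusted p = 0.0387).

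The 3 genes with a positive difference had effects of opposite sign, lower with ozone in SHAM and higher in ADREX. Ift20, a small protein of intraflagellar transport, had 271, 313, 290.0 and 317 in SHAM air, 223, 213, 219 and 252 in SHAM ozone, 206, 253, 247 and 269 in ADREX air, and 353, 397, 355 and 433 in ADREX ozone. ADREX ozone was above all other libraries. Its difference was 1.05 ± 0.19 (adjusted p = 0.0400), and neither effect passed alone. Tmem159 (current symbol Ldaf1) encodes a lipid droplet assembly factor. It had 152, 144, 195 and 169 in SHAM air, 74.0, 83.2, 102 and 61.9 in SHAM ozone, 62.4, 83.7, 59.6 and 113 in ADREX air, and 108, 155, 106 and 158 in ADREX ozone. SHAM ozone and ADREX air shared one low range. Tmem159 fell by 1.04 on the log2 scale with ozone in SHAM (adjusted p = 0.0328), and the difference was 1.78 ± 0.33 (adjusted p = 0.0449). Mettl6, a methyltransferase of transfer RNA, had 286, 294, 273 and 325 in SHAM air, 208, 179.8, 177 and 168 in SHAM ozone, 214, 183, 232 and 239.7 in ADREX air, and 269, 267, 267 and 331 in ADREX ozone. Ozone and air were apart in SHAM and in ADREX, in opposite order. Its difference was 1.06 ± 0.20 (adjusted p = 0.0479), with a fall by 0.68 in SHAM (adjusted p = 0.0226).

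**Figure D2:**
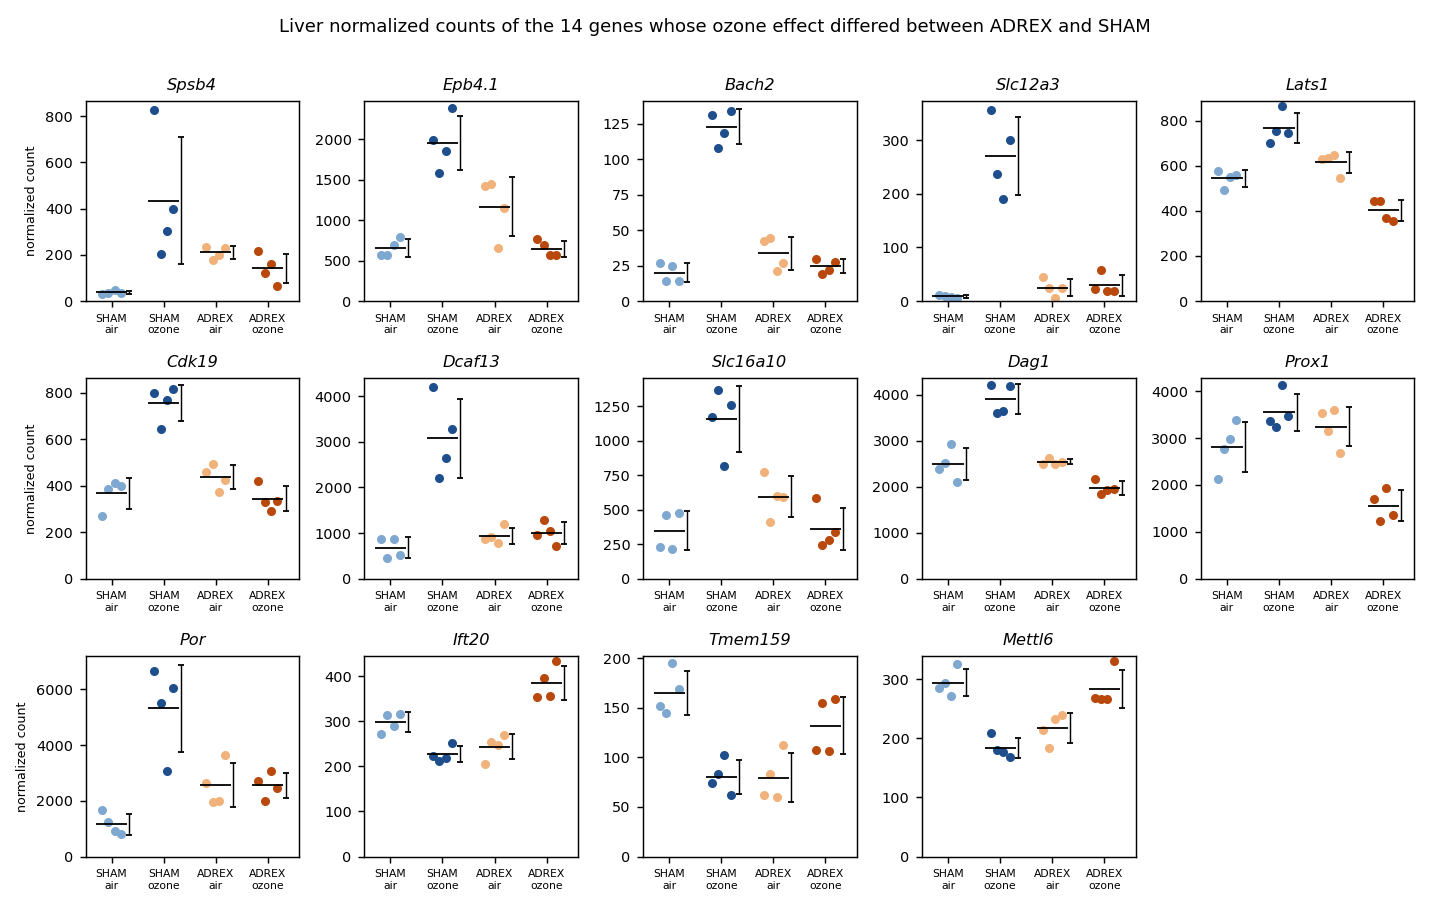
Normalized counts of the 14 genes in each of the 16 libraries (points), with group means (lines) and SD (bars, 4 libraries a group), each panel on its own axis from 0. SHAM ozone has the highest mean in 11 panels, and ADREX ozone has the lowest mean in 5 and the highest in 1 (Ift20).

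Across the 14 genes, the ozone effects had opposite signs in 11 and the same sign in 3 (Slc12a3, Dcaf13 and Por). In 7 genes the SHAM effect was at least 2 times the size of the ADREX effect, in 1 the reverse held, and in 6 neither effect was 2 times the size of the other and the signs were opposite. Among the 1645 genes at an unadjusted p under 0.05 the same forms made up 37.3%, 24.98% and 37.6%, and among all genes tested 30.8%, 27.6% and 16.8%. Selection by the difference favours opposite signs, so these shares are a description. Of the 14, 11 passed the test for ozone in SHAM (1.58% of genes tested), 9 of them up (background 0.946%) and 2 down (Tmem159 and Mettl6, background 0.633%). In ADREX 1 passed (Prox1; background 0.125%). With adrenalectomy against sham surgery, 13 passed under ozone (12.5% of genes tested; Tmem159 had an adjusted p of 0.0546) and 3 in air (Spsb4, Por and Tmem159; 3.53%). Ozone and air libraries did not overlap in 13 of the 14 genes in SHAM (11.1% of genes tested) and in 5 in ADREX (9.96%). ADREX and SHAM libraries did not overlap in 5 of the genes in air (9.27%) and in 12 under ozone (20.5%). These contrasts share libraries with the difference, so they describe its parts and add no support.

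The calls of Spsb4, Epb4.1 and Bach2 did not depend on any 1 library. With each library left out in turn, Spsb4, Epb4.1 and Bach2 had adjusted p-values of at most 0.0292, 0.0294 and 0.0431. Slc12a3 lost its call without 5 of the 16 libraries, with a highest adjusted p of 0.0759 (without SHAM ozone 20). Lats1 lost it without 8, Cdk19 and Slc16a10 without 9, Dcaf13 without 10, Prox1 and Por without 11, Dag1 without 12, Ift20 and Mettl6 without 13, and Tmem159 without 14. Their highest adjusted p-values were 0.0920 for Lats1, Cdk19, Dcaf13 and Slc16a10 (without SHAM ozone 20), 0.122 for Dag1 and Ift20 (without SHAM ozone 17), 0.105 for Prox1 (without ADREX ozone 84), and 0.129 for Por, 0.142 for Tmem159 and 0.162 for Mettl6 (without SHAM ozone 20). No named gene changed sign in any setting. Differences ranged from −4.63 to −3.63 for Spsb4, from −2.64 to −2.25 for Epb4.1, from −3.25 to −2.48 for Bach2 and from −5.11 to −3.71 for Slc12a3.

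**Figure D3:**
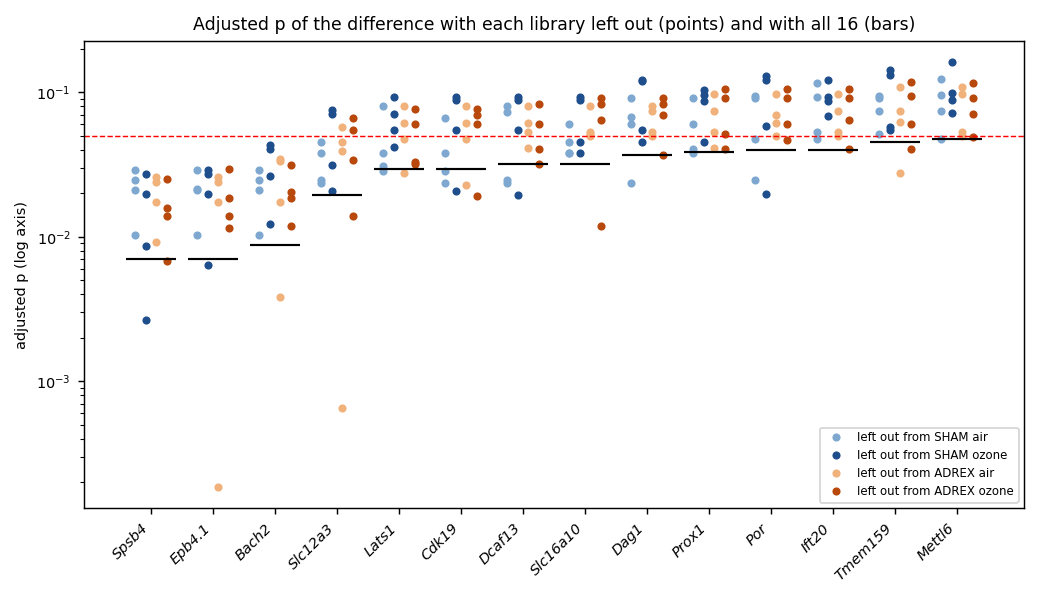
Adjusted p of the difference (log axis) for the 14 genes with all libraries (bars) and with 1 library left out (points, coloured by its group). The dashed line is the threshold of 0.05. All points of Spsb4, Epb4.1 and Bach2 lie under it, and the other genes have points on both sides.

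Within groups the correlation of these genes with the neural marker score lay between −0.24 and 0.57, and 0 of 14 genes exceeded 0.7, against 9.42% of genes tested and 3.40% of the 1645. With the score as a covariate all 14 were called among 22 genes. Without the 3 libraries richest in these markers (SHAM ozone 18, ADREX ozone 81 and ADREX ozone 82) 15 genes were called, all negative, and 7 of the 14 were among them.

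Count models fitted to the recovered reads called more genes. edgeR called 24 (0.188%), 22 of them negative (0.172%), and DESeq2 249 (1.95%), 190 of them negative (1.49%), with 2736 genes given no adjusted p. Of the 14 genes, 12 were called by edgeR, 13 by DESeq2 (Bach2 had no adjusted p there) and 11 by all 3 tools. Ift20 and Mettl6 missed in edgeR (adjusted p = 0.0572 and 0.0604). Named here are 10 further genes, the most the naming rule allowed, that both count models called and limma did not. They had no placeholder symbol and a mean of at least 73.4 in their highest group, and were taken in order of limma p. Limma's adjusted p-values for them ran from 0.0703 to 0.0870. Of these, Scrn1, which encodes secernin, had 118, 243, 250.004 and 367 in SHAM air, 125, 224, 262 and 133 in SHAM ozone, 102, 45.5, 93.8 and 73.4 in ADREX air, and 337, 514, 237 and 358 in ADREX ozone, and its difference was 2.55 ± 0.50. SHAM libraries overlapped and all ADREX ozone libraries were above ADREX air. The other 9 had negative differences of −0.95 to −1.86: Sgms1 (sphingomyelin synthase), Wasl (a regulator of actin assembly), Ptp4a1 (a phosphatase), Tp53i13, Rnf6 (a ubiquitin ligase), Esrp2 (an epithelial splicing regulator), Slain2 (a microtubule protein), Pdzd8 and N4bp2. Sgms1 had 618, 430.0, 603 and 419 in SHAM air, 1771, 772, 1508 and 1751 in SHAM ozone, 567, 644, 962 and 477 in ADREX air, and 486, 481, 437 and 505 in ADREX ozone. SHAM ozone 18 was within the ADREX air range and the other SHAM ozone libraries were above all the rest.

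Gene lists for hormone action and liver metabolism were described by counts at an unadjusted p under 0.05 and by their median. Of all genes tested, 6.18% had a negative and 6.69% a positive difference at that level. At any p, 44.9% of all genes had a negative difference, and the median was 0.07. Counts of negative and positive differences in a list, here and below, are at that level unless given over all members. Members and lists, here and below, were chosen with earlier results of these data known. That choice can raise the counts above those shares, so the counts are a description and not a test. Of 26 glucocorticoid receptor targets tested, 6 had a negative and 0 a positive difference, and the median was −0.53. None passed the adjusted threshold in limma or edgeR, and DESeq2 called 3. Fkbp5, a chaperone that the receptor induces, had 415, 593, 405 and 512 in SHAM air, 2897, 1352, 1735 and 2433 in SHAM ozone, 295, 279, 460.2 and 267 in ADREX air, and 481, 348, 179 and 452 in ADREX ozone. Only SHAM ozone was above 1000, and the ADREX groups overlapped. Its difference was −1.98 ± 0.42 (adjusted p = 0.0901). Cdkn1a, the cell cycle inhibitor p21, had 354, 129.7, 450.007 and 345 in SHAM air, 2916, 816, 2117 and 3217 in SHAM ozone, 105, 76.3, 237 and 141 in ADREX air, and 119, 192, 75.7 and 67.6 in ADREX ozone, with a difference of −3.08 ± 0.68 (adjusted p = 0.0988). Agt, the precursor of angiotensin, had SHAM means of 8035 in air and 18682 with ozone and ADREX means of 10368 and 9342, with a difference of −1.41 ± 0.31 (adjusted p = 0.0988). For Cdkn1a and Agt too, every SHAM ozone library was above all others. The other members at an unadjusted p under 0.05 were Tat, Tdo2 and Lcn2, with differences of −1.37, −1.05 and −3.04.

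Enzymes that break down amino acids or make urea had 5 negative and 0 positive differences of 29, with a median of −0.28. They were Sds, which turns serine into pyruvate (−2.44), Got1, an aspartate aminotransferase (−2.33), Tat and Tdo2, which open tyrosine and tryptophan breakdown, and Cps1, which starts the urea cycle (−0.76). Got1 had 2509, 2233, 2080.0 and 5468 in SHAM air, 17385, 14302, 13420.5 and 20109 in SHAM ozone, 10132, 4732, 3395 and 12358 in ADREX air, and 6635, 8019, 12639 and 4952 in ADREX ozone. All ADREX libraries were below SHAM ozone and they overlapped between exposures, and the adjusted p was 0.118. Amino acid and monocarboxylate transporters had 7 negative and 0 positive differences of 16, with a median of −0.43 and 1 call, Slc16a10, around which this list was partly built. The mitochondrial ornithine carrier Slc25a15 had 8941, 8390.0, 11188 and 13992 in SHAM air, 47095, 38017, 50523 and 44857 in SHAM ozone, 20217, 13224, 9799 and 30939.8 in ADREX air, and 17502, 23041, 27872 and 10155 in ADREX ozone. Its SHAM ozone libraries were above all others, and its difference was −1.98 ± 0.47 (adjusted p = 0.116). Slc7a2, Slc25a22, Slc38a3, Slc38a4 and Slc3a2 had −1.42, −1.67, −0.88, −0.80 and −0.51. Gluconeogenesis genes had 3 negative and 0 positive differences of 16 (Foxo1, Mdh1 and Eno1), with a median of −0.29. Glycogen genes had 0 negative and 3 positive of 14 (Ugp2, Gyg1 and Phkg2), with a median of 0.15. Eno1 had 8.41 and 4.01 in SHAM air 2 and 4, against 317 and 219 in SHAM air 1 and 3. It was no longer at that level without any 1 of 4 libraries, SHAM air 2 and 4 among them. Foxo1 was lost without any 1 of 3 libraries, and Mdh1 without none.

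**Figure D4:**
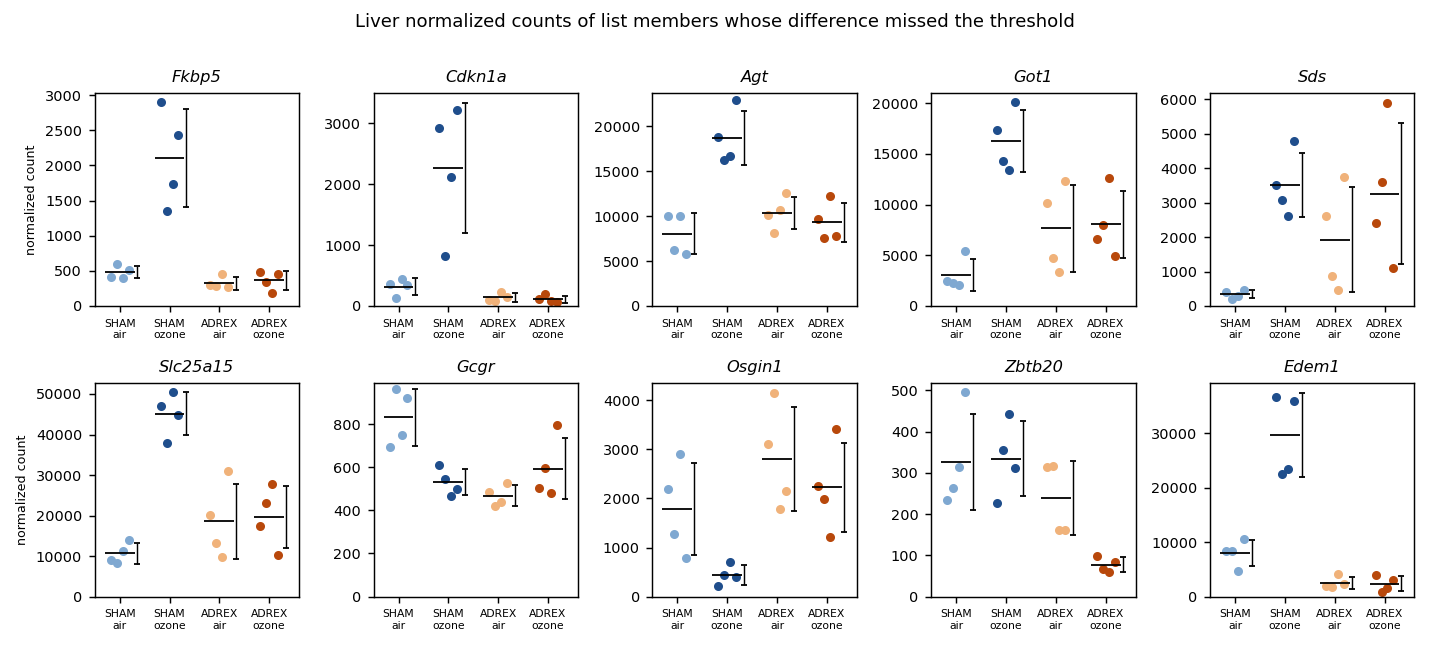
Normalized counts by library of 10 list members whose difference did not pass the adjusted threshold, with group means (lines) and SD (bars, 4 libraries a group), each panel from 0. Fkbp5, Cdkn1a, Agt, Got1 and Slc25a15 are higher in SHAM ozone than in all other libraries, Edem1 is higher there too, Osgin1 is lower there, and Zbtb20 is lower in ADREX ozone.

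Of 13 genes tested for adrenergic, glucagon and steroid receptors and their partners, 0 had a negative and 3 a positive difference at that level, with 8 positive and 5 negative in all and a median of 0.15: the glucagon receptor Gcgr (0.96 ± 0.24, adjusted p = 0.127), the adrenergic receptor Adra1b (0.71 ± 0.27) and the G protein subunit Gnas (0.82 ± 0.28). Gcgr had 693, 962, 748 and 921 in SHAM air, 608, 547, 467 and 500.0 in SHAM ozone, 486, 422, 439 and 527 in ADREX air, and 503, 596, 482 and 794 in ADREX ozone. SHAM air was above SHAM ozone and ADREX air in all libraries. Immediate early and cAMP response genes had 1 negative difference of 14. It was Btg2 (−1.58), with 1340 in ADREX air 67 against 410 to 738 in the other ADREX air libraries. Over all 14 members, 9 differences were negative and 5 positive, with a median of −0.44. Insulin, IGF and growth hormone signalling had 4 negative and 0 positive of 22 (Insr, Pik3r1, Pdpk1 and Foxo1, −0.64 to −1.25), with a median of −0.24. Clock genes had 2 negative of 18 (Rora and Hlf), with a median of −0.24. In p53 and growth arrest genes 4 of 15 were negative at that level: Cdkn1a, Btg2, Tp53inp1 and Ccng1 (−1.24 ± 0.32). Over all 15 members, 10 differences were negative and 5 positive, with a median of −0.59.

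Several lists were drawn up around a called gene, so their counts include it by construction. Hippo pathway genes had 6 negative and 1 positive of 20, Lats1 being the call. The others were Stk4, Mob1a, Mob1b, Amotl2 and Tead1, at −0.53 to −1.26, and Tead2, at 1.30. Over all 20 members, 10 differences were negative and 10 positive, with a median of −0.03. Hepatocyte transcription factors had 7 negative and 1 positive of 19, with a median of −0.43 and 1 call, Prox1. Zbtb20, a repressor of fetal liver genes, had 235, 264, 314 and 496 in SHAM air, 226, 356, 444 and 311 in SHAM ozone, 315, 317, 162 and 161 in ADREX air, and 98.4, 67.04, 60.3 and 84.9 in ADREX ozone. As for Prox1, ADREX ozone was below every other library. Its difference was −1.61 ± 0.41 (adjusted p = 0.135). Foxa3 (−1.99), Gata6 (−1.53), Gata4 (−0.78) and Nr5a2 (−0.54) were also negative, and the bile acid receptor Nr1h4 was positive (0.78).

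Bach and Maf factors had 3 negative of 10 (Bach2, Bach1 at −1.55 and Mafk at −0.93), with a median of −0.49. SPRY and SOCS box proteins had 2 negative of 12 (Spsb4 and Spsb1 at −2.55), with a median of −0.26. Spsb1 had 14.9, 6.01, 26.3 and 28.1 in SHAM air, 146, 35.5, 174 and 155 in SHAM ozone, 47.1, 43.4, 19.4 and 24.5 in ADREX air, and 60.6, 56.6, 23.0 and 17.3 in ADREX ozone. One SHAM ozone library, 18, lay within the ADREX range. Membrane skeleton and dystroglycan genes had 3 negative (Epb4.1, Dag1 and Epb4.1l5 at −1.10) and 1 positive (Epb41l4b) of 18. Over all 18 members, 6 differences were negative and 12 positive, with a median of 0.15. The Mediator kinase module and its partners had 3 negative of 12 (Cdk19, Med13 and Med13l), with a median of −0.32. Ion and bicarbonate transport genes had 4 negative of 18 (Slc12a3, Wnk1, Slc4a4 and the carbonic anhydrase Car12 at −1.61). The median of that last list, 0.05, became −0.04 after rescaling by TMM. Of 19 cytochrome P450 system genes, Por, Cyb5a and Cyp2b2 were negative at an unadjusted p under 0.05, and 0 were positive. Over all 19 members, 10 differences were negative and 9 positive, with a median of −0.04.

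Among stress, inflammation and lipid lists, NF-kB and cytokine genes had 3 negative of 14 (Icam1, Il6r and Il1r1). Over all 14 members, 11 were negative and 3 positive, with a median of −0.51. Heat shock genes had 4 negative of 11 (Hspa1a at −2.53, Hspb8, Dnajb1 and Hspd1). Over all 11 members, 9 were negative and 2 positive, with a median of −0.44. The unfolded protein response had 1 negative of 20, Edem1, at −2.16 ± 0.59 (adjusted p = 0.157). Over all 20 unfolded protein response members, 6 differences were negative and 14 positive, with a median of 0.17. Acute phase proteins had 2 negative (Il1rn and Lcn2) and 2 positive (Hamp and Ambp) of 19, with a median of 0.25. NRF2 antioxidant targets had 1 positive of 20, Osgin1 at 1.60 ± 0.59, with a median of 0.23. The interferon response had 0 of 19, with a median of 0.33. Fatty acid oxidation genes had 2 negative and 1 positive of 23, with a median of −0.06, and Cpt1a, which admits fatty acids to mitochondria, had a difference of −0.98. Fatty acid synthesis had 1 positive of 20 (Mid1ip1), with a median of 0.12. Cholesterol genes had 1 negative of 24 (Hsd17b7), with a median of −0.19. ADREX air 67 stood above the other ADREX air libraries in several of these genes: Il1r1 had 6307 there against 2317 to 2665, Icam1 911 against 396 to 552, and Hsd17b7 828 against 256 to 363. Genes not at an unadjusted p under 0.05 showed it too: Hmgcs1 had 14292 there against 1916 to 2324, and Cyp51 12280 against 1063 to 1684. The summed level of the cholesterol list ran from 1801 to 6627 RPM in ADREX air, with a median of 2046. A check without ADREX air 67 was added after seeing the data. There the differences of Il1r1, Icam1, Hsd17b7 and Btg2 were −0.88, −0.75, −0.73 and −1.25 in place of −1.21, −0.99, −1.07 and −1.58. Each was still at an unadjusted p under 0.05. Of the 90 members of the lists and marker sets at that level, 9 were no longer there without ADREX air 67, and 0 changed sign. The 9 were Car12, Csf3r, Cyb5a, Cyp2b2, Eno1, Lcn2, Slc3a2, Tead2 and Ugp2. Other single libraries mattered as well. Cyb5a and Cyp2b2 left that level without any 1 of 12 libraries, Car12 and Ambp without any 1 of 11. Hamp, Nr5a2, Wnk1, Dnajb1 and Mid1ip1 did so without any 1 of 9. By contrast, Fkbp5, Cdkn1a, Agt, Got1, Slc25a15 and Zbtb20 stayed at an unadjusted p under 0.05 whichever single library was left out. None of the members named from these lists changed sign under either rescaling.

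**Figure D5:**
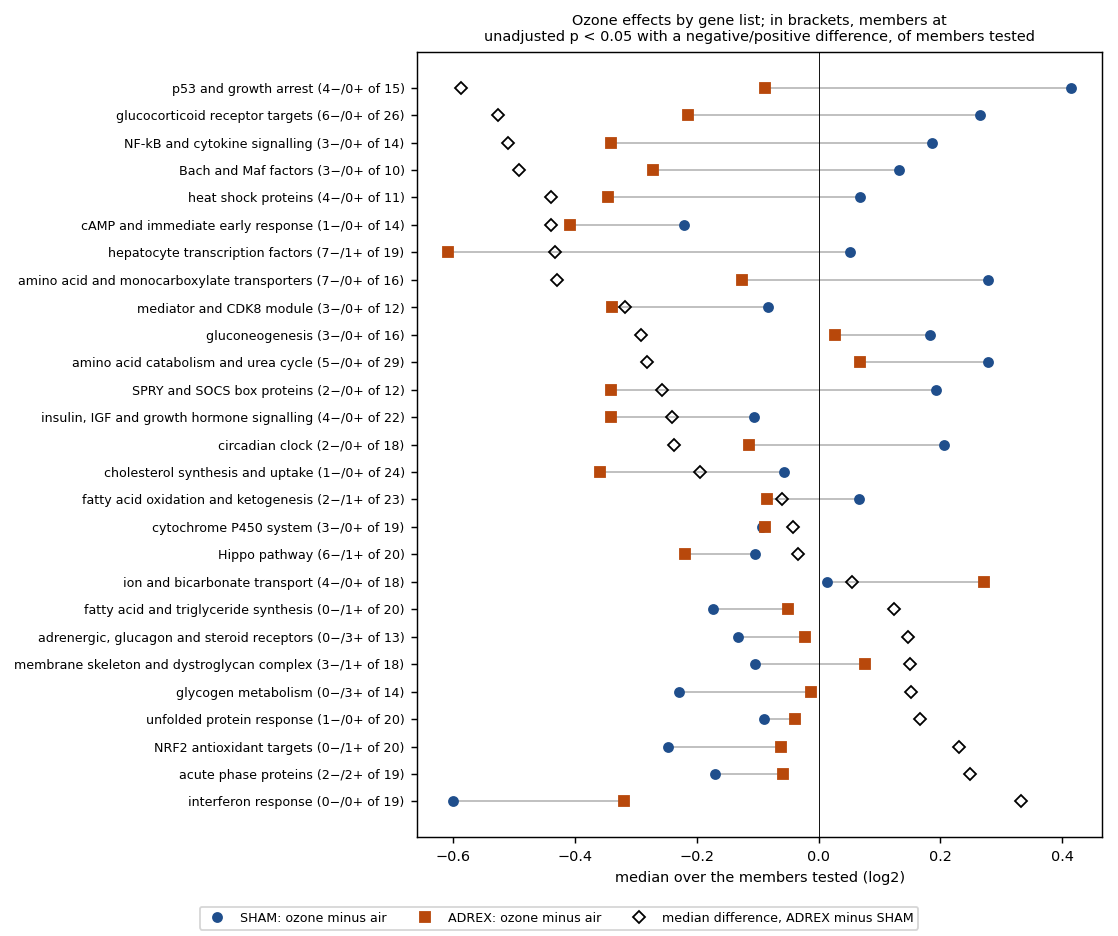
Median ozone effect over the tested members of 27 gene lists in SHAM (circles) and ADREX (squares) and median of the members' differences (diamonds), log2 scale. Numbers in brackets count members at an unadjusted p under 0.05. Median differences run from −0.59 (p53 and growth arrest) to 0.33 (interferon response), and the median over all genes tested is 0.07.

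The design measured single genes coarsely. Differences of all genes tested had a median of 0.07 with 5th and 95th percentiles of −0.91 and 1.05, and a median SE of 0.36, and the median 95% interval reached 0.77 to either side. A difference of at least 1 in size was seen in 521 genes with a negative and 730 with a positive sign, most of which did not pass the adjusted threshold.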

How the data were processed

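Liver mRNA was sequenced in 16 samples, 4 per group. Per the submitters' processing notes, the authors used Partek and DESeq2 with the rat build rn6; neither tool versions nor the aligner or annotation is given in the sources used here. Values as deposited are a normalized signal, and their steps show whole reads scaled by a constant within each library. All values (100%) came back to whole reads within 0.01 when divided by each column's step, and totals were 8372891 to 14096246 reads. The table names genes by symbol, without positions, and 1081 genes tested carry placeholder symbols.

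Values were transformed as log2(value + 1), so fold changes of low genes are understated. Genes with a mean of at least 14.7 were tested with limma-trend 3.58.1 (R 4.3.3), two-sided, on 4 group means over 16 libraries (12 residual and 4.42 prior degrees of freedom), with Benjamini-Hochberg adjustment over 12788 genes. All adjusted p-values are limma's unless another tool is named. The genes named were those past an adjusted p of 0.05 without placeholder symbols, up to 10 more that edgeR 4.0.16 and DESeq2 1.42.0 both called on the recovered reads, and list members past the adjusted threshold or at an unadjusted p under 0.05; a few of these members are not reported here. Members and lists were chosen with earlier results of these data known. The fit was tested on simulated data. Alternatives were another pseudocount, other filters, rescaling, quality weights, a robust fit, the count models, a neural marker covariate, and leaving out libraries. Promoter sequences are RefSeq's (GRCr8), matched by symbol or synonym, and no coordinates were converted from rn6. Some library index numbers occur in more than 1 sample and no sequencing run is named, so an effect of run was not tested. Reads carry no molecular identifiers, so the precision from depth covers counting error only.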

Additional observations from a re-analysis of the deposited data

Results flagged for a closer look

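The ozone effects in ADREX and SHAM differed by limma's test of the difference for 14 genes. The log2 differences (ADREX minus SHAM) were −4.005 for Spsb4, −2.37 for Epb4.1, −3.01 for Bach2, −4.51 for Slc12a3, −1.11 for Lats1, −1.41 for Cdk19, −2.12 for Dcaf13, −2.57 for Slc16a10, −1.02 for Dag1, −1.42 for Prox1, −2.17 for Por, 1.05 for Ift20, 1.78 for Tmem159 and 1.06 for Mettl6.

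In 3 groups of the 24 named genes, 1 library stood far from the other 3 of its group. Slc12a3 had 57.6 normalized counts in ADREX ozone 82, against 18.7 to 21.7 in the others. Mettl6 had 331 in ADREX ozone 84, against 267 to 269. Ptp4a1 had 4646 in ADREX ozone 84, against 7339 to 7756. Chance flags about 1 in 20 groups, and 96 groups were examined.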

How the results depend on the processing

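No named gene changed sign under any setting. Against 14 genes, the number called was 183 (66 positive, 117 negative) with array quality weights, 24 with edgeR, 249 with DESeq2 and 22 with the neural score as covariate; the cause was not tested. A threshold of 0.1, which admits more genes by construction, gave 46. It was 11 to 21 with the other pseudocounts, filters and rescalings and the robust fit. Leaving out 1 library gave 3 to 33. Dropping SHAM air 1, 2, 3 or 4 gave 10, 5, 33 or 8 genes, SHAM ozone 17 to 20 gave 3, 20, 6 or 3, ADREX air 65 to 68 gave 4, 3, 19 or 10, and ADREX ozone 81 to 84 gave 29, 6, 3 or 3. Where 3 remained they were Spsb4, Epb4.1 and Bach2. No paired analysis was possible because the groups share no replicate numbers. At these depths 3 reads, the limit that a count of 0 allows, correspond to 0.213 to 0.358 RPM.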

Other observations

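Markers of other cell types were described for the same contrast, outside the lists of the report. Of all genes tested, 44.9% had a negative difference, and 12.9% were at an unadjusted p under 0.05 in either direction. These marker sets are small, so their counts are a description and not a test. Of 5 cholangiocyte markers tested, 2 had a negative and 0 a positive difference at an unadjusted p under 0.05, all 5 were negative with a median of −0.84, and Epcam had −0.96 ± 0.26. The summed level of the list was 15.0 to 38.6 RPM in SHAM air, 37.9 to 56.8 in SHAM ozone, 35.3 to 49.6 in ADREX air and 30.2 to 43.4 in ADREX ozone. The SHAM air range reached into each of the others. All 5 T and NK cell markers were positive, and 1 was at that level (Cd8a, 1.45 ± 0.39, adjusted p = 0.152). All 4 erythroid markers were negative with a median of −1.86, and 1 was at that level (Slc4a1, −1.10). That median depended on the libraries used, and was −3.90 without the 3 libraries richest in neural markers. Hbb had 6174 normalized counts in SHAM ozone 17 against 903 to 1527 in the other SHAM ozone libraries. In ADREX ozone Hbb had 2495, 2276, 155 and 74.8. Both neutrophil markers were negative with a median of −1.02, and 1 was at that level (Csf3r, −1.17). Csf3r left that level without any 1 of 9 libraries, ADREX air 67 among them. Macrophage markers were 5 negative and 5 positive with a median of −0.13, and C1qa alone was at that level (0.71 ± 0.23). Stellate cell markers were 6 negative and 4 positive with a median of −0.07, and Colec11 alone was at that level (0.77 ± 0.25). Of 10 hepatocyte markers 1 was at that level, Cps1, with a list median of 0.07. Sinusoidal endothelial, neuron, oligodendrocyte, astrocyte, B cell, adipocyte, pancreatic acinar and adrenal cortex markers had 0 members at that level. The part of the non-neural cell types in the results of the report was not tested. None of these genes passed the adjusted threshold of limma, and DESeq2 called 1 cholangiocyte marker.

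Adrenal cortex markers, a list of steroid synthesis genes, summed to 3.30 to 9.34 RPM in SHAM and 8.33 to 60.5 RPM in ADREX libraries, and the 1 member tested, Cyp17a1, had a difference of −0.16 ± 0.83. Cyp17a1 had 32.5 to 130 normalized counts in SHAM and 119 to 884 in ADREX libraries. The other members were below the filter, so the sum mainly followed Cyp17a1 and does not describe the list as a set.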
